A study of Mus musculus with 6 samples.

Results

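The mRNAs described here encode 41 chromatin and transcription regulators, among them histone methyltransferases, chromatin remodelling ATPases, acetyltransferases, deacetylases and Mediator subunits. They were picked by gene symbol and not by a rule on measured values, though with earlier results of these data known. They are 41 of the 52962 genes in the deposited table, with 400 annotated transcripts between them. Of those transcripts, 172 had a read with a tail estimate in at least 1 library. The libraries came from cerebral cortex of C57BL/6 mice: 3 samples were from wild type (WT) mice and 3 from Fmr1 knockouts (KO), assigned by their titles, with the knockout allele, the age of the mice and any pooling of animals not given in the sources used here. Poly(A) RNA was sequenced directly on a nanopore PromethION, which reads each RNA molecule from its tail and without copying it into cDNA, so 1 read stands for 1 molecule whatever its length. The series compared poly(A) tail length with and without FMRP, the RNA-binding protein that Fmr1 encodes. Nothing in the labels says that samples of a group came from separate mice, so p-values measure the spread between these samples, which may be technical.

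Chromatin regulators work in large complexes that move nucleosomes, write or erase marks on histone tails, or connect transcription factors to RNA polymerase II. Their mRNAs tend to be long, and many of the genes are known from human neurodevelopmental disorders, such as Chd8 in autism, Arid1b in Coffin-Siris syndrome and Kmt2d in Kabuki syndrome. FMRP binds many long neuronal mRNAs in mouse brain and represses their translation, and chromatin regulators are a known class among them. The poly(A) tail is added to an mRNA in the nucleus, bound by poly(A)-binding proteins and shortened in the cytoplasm, and in the cytoplasm CPEB1 can direct its lengthening through U-rich elements near the 3′ end.

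The libraries held 2404074 to 3849077 reads with a tail estimate, and the 41 genes took 29469 of these over the 6 libraries, 0.147% of the total. The median was 524 reads per gene, and the range ran from 53 for Srcap to 2780 for Chd3. Fmr1 stood at 41.7, 45.1 and 46.4 CPM (tail reads scaled to library size by TMM) in WT and 10.9, 11.8 and 8.22 CPM in the knockout, lower in all 3 knockout libraries. All 9 neuronal markers on the list were measured and summed to 7771 to 8146 CPM across WT and 8521 to 8828 CPM across KO. Within that list Sst and Nrgn were called higher in the knockout, where 1.03% of all genes were called in either direction. Abundance estimates (knockout over WT) were above 0 for 6 of the 9 and below 0 for 3, with a median log2 change of 0.05. Choroid plexus markers, led by Ttr, which was called lower, summed to 34.95 to 837 CPM across WT and 13.5 to 27.8 CPM across KO, and oligodendrocyte markers to 3608 to 4231 CPM across WT and 3629.9 to 3928 CPM across KO. None of the markers of astrocytes, oligodendrocytes, microglia, vessels and meninges, blood or striatum was called. In tissue of mixed cells, fewer cells of a type and less RNA per cell cannot be told apart, and the part of these markers in the results was not tested.

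The 3′ ends of these mRNAs are shown first because the tail is added there. Cleavage and polyadenylation is directed by a hexamer, most often AATAAA or its variant ATTAAA, a short way before the end. For each gene the transcript with most tail reads was taken, and 38 of the 41 genes had a protein-coding one with a complete annotated end among genes tested for tails. AATAAA stood in the last 50 bases of 28 of them (73.7%), against 67.7% of 10553 such genes over the whole table, and 3 more held ATTAAA alone. The following windows of 30 bases are from the GENCODE mouse release 21 transcripts (mm10), read along the sense strand with the hexamer in capitals. They show 4 of the 5 mRNAs with the longest WT tails, and then 3 remodelling ATPases with shorter ones. Of these, Smarca2, at 150 nt, is not at the short end of the range.
Dot1l (chr10:80795429-80795458, plus strand): cacagtataataAATAAAgccgttttcact
Kmt2a (chr9:44803364-44803393, minus strand): gatagtttaattAATAAAcatgtcaagttt
Kmt2d (chr15:98831678-98831707, minus strand): ttttaaacgataAATAAAaaaagaacattt
Kmt2c (chr5:25271799-25271828, minus strand): tcaccatttacaAATAAAatattttacatc
Smarca2 (chr19:26778287-26778316, plus strand): tggtactttcctAATAAAccgataacgtac
Smarca4 (chr9:21704194-21704223, plus strand): aatgaagactgaAATAAAtaagtaggactt
Chd4 (chr6:125130557-125130586, plus strand): atgagaactgaaAATAAAagtttccttgta
These 7 were chosen from mRNAs that hold AATAAA, which stood 13 to 21 bases before the annotated end. Members with AATAAA had a median WT tail of 170.2 nt (n = 28) and those without it 149.7 nt (n = 10), beside 146 and 142 nt over all genes. Neither hexamer was in the last 50 bases for Med12, with a long tail, or for Chd3 and Atn1, with short ones. The CPEB1 element, searched as TTTTAT or TTTTAAT on the sense strand of the last 100 bases, where it may overlap the hexamer, was present in 8 members (21.1%) and in 19.1% of all genes with such a transcript. Among members the 8 with the element had a median WT tail of 157 nt and the 30 without it 164 nt. Over all genes the order was the other way, 149 nt with the element (n = 2018) and 144 nt without (n = 8535). These are matches of letters in annotated ends, and whether the sequenced molecules ended there was not examined.

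In WT cortex, chromatin regulator mRNAs had longer tails than most mRNAs, and about the tails found on other transcripts of their length. Tails were pooled per gene as the mean over all its reads, and 40 members had at least 10 reads in every library. Their median tail was 159, 166 and 159 nt in the 3 WT libraries, a mean of 161 ± 3.702 nt (SD, n = 3). Over all 11323 genes it was 145 ± 2.67 nt, and 33 of 40 members lay above the median gene. The members are also long, with a median transcript of 8187 nt against 3132 nt over all genes tested. Each was therefore set beside the 27 to 3088 other genes whose main transcript was between 80% and 125% of its length. Of 40 members, 21 were above and 19 below the median of those genes, by 3.396 nt in the median. As a description across genes, which are not independent, Spearman's rho between length and WT tail was 0.50 over the 40 members and 0.52 over all genes tested. Between abundance in RPM and tail it was -0.65 over members and -0.31 over all genes.

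**Figure D1:**
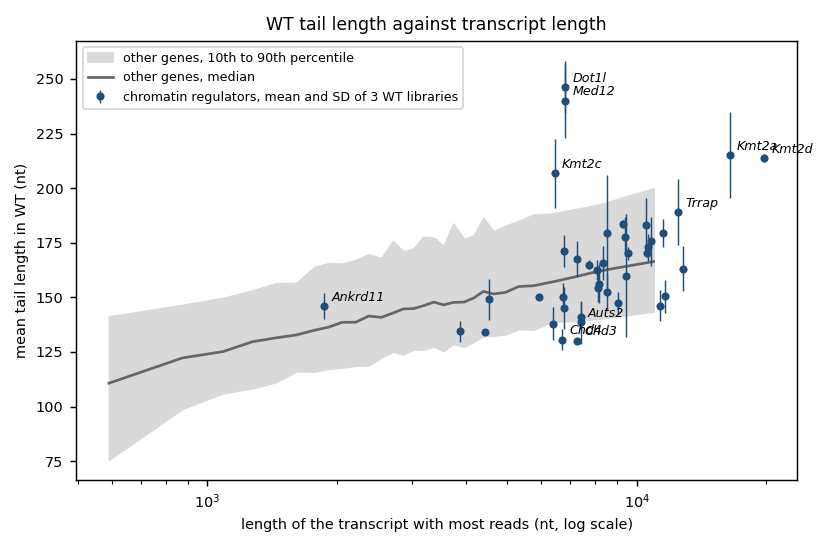
Mean poly(A) tail length in WT (nt) against the length of the transcript with most reads (nt, log scale); points are the chromatin regulators with the SD over 3 WT libraries, and the line and band are the median and the 10th to 90th percentile of all other genes in bins of length, drawn at each bin's middle. Dot1l, Med12 and Kmt2c lie above the band, at 246, 239.9 and 207 nt, and Chd3, Chd4, Smarca4 and Auts2 lie below it, at 130.1, 131, 138 and 139 nt.

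The spread between members was much wider than the spread between libraries. The SD of the WT tail between members was 27.7 nt, while the median SD of 1 member over the 3 WT libraries was 7.39 nt. Histone methyltransferases held 4 of the 5 longest tails. Dot1l, which methylates lysine 79 of histone H3 (chromosome 10, 80755206 to 80795461), had 257, 249 and 233 nt in WT replicates 1 to 3 and 238, 249 and 235 nt in KO replicates 1 to 3. The genotypes overlapped. The WT mean was above 99.1% of the 1479 genes of like length, whose median was 158 nt.

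The MLL family methylates lysine 4 of histone H3, and 3 of its large members came next among the methyltransferases. Kmt2a (chromosome 9, 44803355 to 44881296) had 218, 233 and 194 nt in WT replicates 1 to 3 and 194, 220.5 and 231 nt in KO replicates 1 to 3. Kmt2d (chromosome 15, 98831669 to 98871204) had 212, 214 and 216 nt in WT replicates 1 to 3 and 182, 199 and 222 nt in KO replicates 1 to 3. The WT libraries of Kmt2d lay close together and within the range of its knockout libraries. Kmt2c (chromosome 5, 25271798 to 25498783) had 204, 224 and 192 nt in WT replicates 1 to 3 and 212, 237 and 218 nt in KO replicates 1 to 3. For Kmt2a and Kmt2d, transcripts of 16461 and 19805 nt, the WT means were above 85.1% and 85.2% of 74 and 27 genes of like length. Kmt2c was above 96.1% of 1647 such genes, but its reads were assigned to an annotated transcript of 6443 nt, and the longest one of the gene measures 14967 nt. Reads start at the 3′ end, so isoforms that differ only upstream are hard to tell apart. The other members placed in the methyltransferase group were lower, and whether each has that activity was not examined. Setd5 and Setd2, the second of which methylates lysine 36, had WT means of 171 ± 7.31 and 166 ± 7.78 nt. Kmt2e had 167 ± 8.21, Nsd1 163 ± 10.2 and Ash1l 150.4 ± 7.47 nt. From Setd5 down to Nsd1, neighbours in the order differed by less than their SD. The median of the 9 members in this group was 174 ± 6.79 nt across WT and 171 ± 7.29 nt across KO, and 7 of the 9 were above genes of like length in WT.

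Remodelling ATPases and their subunits ran from 130.1 to 183 nt in WT, and their lower end was the lowest of all members. Chd3, an ATPase of the NuRD deacetylase complex (chromosome 11, 69343273 to 69369406), had 129.9, 131 and 129 nt in WT replicates 1 to 3 and 124, 127 and 135 nt in KO replicates 1 to 3 and the most tail reads of any member, 2780. Chd4, the alternative NuRD ATPase (chromosome 6, 125095981 to 125130591), had 129, 136 and 127 nt in WT replicates 1 to 3 and 127, 126 and 147 nt in KO replicates 1 to 3. Both lay below nearly all genes of their length, since only 3.05% of 1279 and 4.04% of 1534 such genes had shorter WT tails. Smarca4 and Smarca2 are the alternative ATPases of the SWI/SNF complex. Smarca4 had 131, 146 and 137 nt in WT replicates 1 to 3 and 142, 129 and 139 nt in KO replicates 1 to 3. Smarca2 had 149, 151 and 150 nt in WT replicates 1 to 3 and 148, 149.9 and 150.4 nt in KO replicates 1 to 3, and no other member varied so little in WT except Chd3. Smarcc2, a core SWI/SNF subunit, had 138, 154 and 155 nt in WT replicates 1 to 3 and 142, 139 and 145 nt in KO replicates 1 to 3. The longest tails of this group were those of Chd6 (183 ± 12.5 nt across WT and 179.8 ± 4.35 nt across KO), Arid2 (179 ± 26.4 nt across WT and 184 ± 11.9 nt across KO), Bptf of the NURF complex (179 ± 6.29 nt across WT and 176 ± 6.65 nt across KO) and the neuronal Chd5 (178 ± 8.89 nt across WT and 172 ± 4.11 nt across KO). Ep400 had 173 ± 6.03 nt in WT, and Chd8, Arid1a and Arid1b had 152 ± 8.29, 156 ± 9.08 and 146 ± 7.19 nt. The group median was 153 ± 3.03 nt across WT and 154 ± 4.66 nt across KO, with 5 of 13 above genes of like length. Srcap, the ATPase that deposits the histone variant H2A.Z, had too few reads for the tail test, 53 over 6 libraries, with means of 176, 185 and 170.3 nt in WT replicates 1 to 3 and 183, 159.9 and 125 nt in KO replicates 1 to 3.

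The acetyltransferases Ep300 and Crebbp and the scaffold Trrap were all above genes of like length in WT. Ep300 had 170.1 ± 3.06 nt across WT and 173 ± 2.05 nt across KO, Crebbp 176 ± 11.2 nt across WT and 164 ± 7.52 nt across KO and Trrap 189 ± 15.2 nt across WT and 183 ± 5.23 nt across KO. Deacetylases and corepressors were lower, with a median of 147 ± 5.25 nt across WT and 145 ± 0.742 nt across KO. Hdac5, a class IIa deacetylase (chromosome 11, 102194432 to 102230166), had 129, 137 and 137 nt in WT replicates 1 to 3 and 129, 133 and 137 nt in KO replicates 1 to 3. Atn1, the atrophin corepressor (chromosome 6, 124742544 to 124756524), had 135, 134 and 133 nt in WT replicates 1 to 3 and 126, 133 and 133 nt in KO replicates 1 to 3. Its knockout libraries were all below its WT libraries, by little. Ncor1, Ankrd11, Hdac4 and Rere had WT means of 147, 146, 163 and 165 nt. Ankrd11 was above 69.8% of 2074 genes of like length. Its length was taken from an annotated transcript of 1874 nt, and the longest one of the gene measures 8481 nt. Among Mediator, polymerase and coactivator genes, Med12 stood far from the rest. Med12, part of the kinase module of Mediator (chromosome X, 101274030 to 101297465), had 220.4, 247 and 252 nt in WT replicates 1 to 3 and 195, 222 and 220.1 nt in KO replicates 1 to 3, on 10 to 32 reads in a library. Its WT mean was above 99.1% of 1477 genes of like length. The other 8 ran from Auts2 (139 ± 9.74 nt in WT), through Polr2a, the largest subunit of RNA polymerase II (150.3 ± 6.15 nt), to Med13l (184 ± 1.71 nt). Between them lay Tcf20, Bcl9l and Hcfc1, at 141, 145 and 154 nt, and Med13 at 170.3 nt. Nipbl, which loads cohesin, had 181, 171 and 128 nt in WT replicates 1 to 3 and 183, 159 and 162 nt in KO replicates 1 to 3. The low value, from WT replicate 3, rested on 28 reads. KO replicate 2 had fewer reads of Nipbl, 19, with a tail of 159 nt, and WT replicate 1 had 30 reads with 181 nt. Whether read number plays a part in the low value was not tested. The genotypes overlapped.

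**Figure D2:**
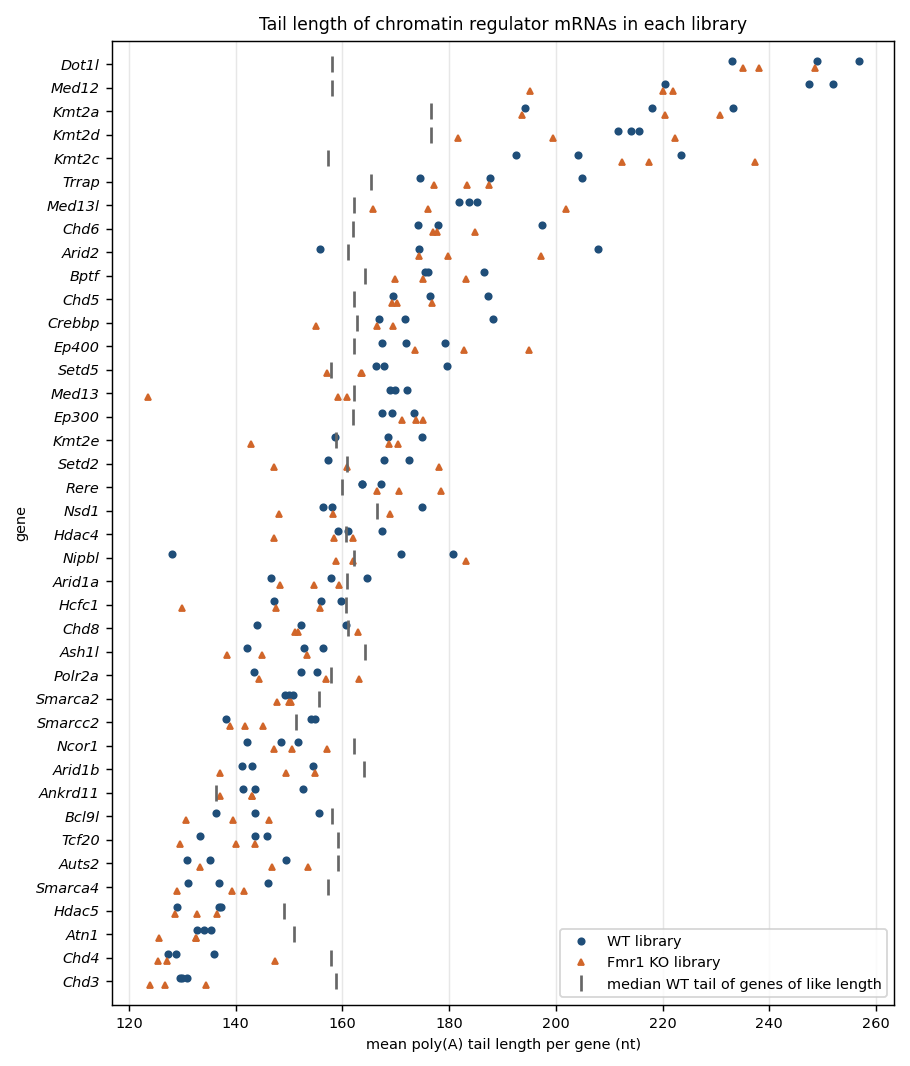
Mean poly(A) tail length per gene (nt) of the 40 chromatin regulators with at least 10 reads in every library, 1 row per gene in order of the WT mean; circles are WT libraries, triangles knockout libraries, and the grey mark is the median WT tail of genes of like length. Circles and triangles overlap in most rows, while the order of genes runs from Chd3 at 130.1 nt to Dot1l at 246 nt.

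Tails of related genes were set against each other within libraries. The difference within each library was taken for 8 pairs, and tested over the 6 libraries by a two-sided exact permutation of signs, which cannot give a p below 0.0312. The pairs were chosen with tail values of these data known. Chd5 was longer than Chd4 in 6 of 6 libraries, by a difference (Chd4 minus Chd5) of -42.9 ± 9.85 nt (SD, n = 6 libraries; exact permutation p = 0.0312, adjusted p = 0.0625). Hdac4 was longer than Hdac5 in 6 of 6, by 25.7 ± 8.205 nt (SD, n = 6 libraries; exact permutation p = 0.0312, adjusted p = 0.0625). Med13 was shorter than Med13l in 6 of 6, by -23.4 ± 14.4 nt (SD, n = 6 libraries; exact permutation p = 0.0312, adjusted p = 0.0625). This mean pools unlike values, -9.72, -16.4 and -13.9 nt in WT replicates 1 to 3 and -16.9, -42.1 and -41.2 nt in KO replicates 1 to 3. Smarca2 was longer than Smarca4 in 6 of 6, by 12.4 ± 6.41 nt (SD, n = 6 libraries; exact permutation p = 0.0312, adjusted p = 0.0625). After Benjamini-Hochberg adjustment over the 8 pairs none was under 0.05, which with this smallest p would have needed at least 6 pairs to reach it. The difference was 8.55 ± 10.2 nt (SD, n = 6 libraries; exact permutation p = 0.125, adjusted p = 0.2) for Arid1a minus Arid1b and 7.102 ± 23.6 nt (SD, n = 6 libraries; exact permutation p = 0.438, adjusted p = 0.5) for Kmt2c minus Kmt2d. For Ep300 minus Crebbp it was 2.099 ± 11.6 nt (SD, n = 6 libraries; exact permutation p = 0.656, adjusted p = 0.656), and for Chd3 minus Chd4 -2.73 ± 5.71 nt (SD, n = 6 libraries; exact permutation p = 0.344, adjusted p = 0.458). In these 4 pairs the sign differed between libraries.

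**Figure D3:**
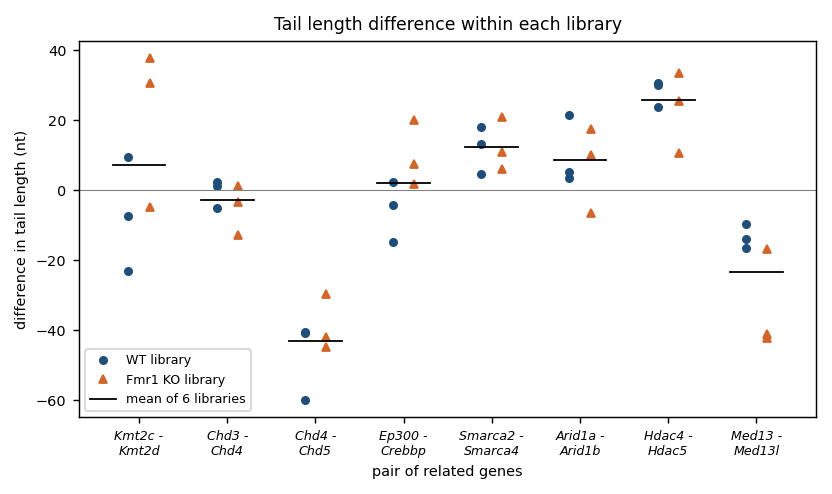
Difference in mean tail length (nt) between the members of 8 related gene pairs within each library; circles are WT libraries, triangles knockout libraries, and the bar is the mean of 6 libraries. All 6 points lie on 1 side of zero for Chd4 - Chd5, Smarca2 - Smarca4, Hdac4 - Hdac5 and Med13 - Med13l, and on both sides for the other 4 pairs.

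Most member reads came from coding transcripts, and better-covered isoforms of 1 gene had WT tails within 24.4 nt of each other. Of all tail reads of the members, 89.5% went to 121 protein-coding transcripts, 4.69% to 31 with a retained intron, 3.804% to 10 marked for nonsense-mediated decay and 1.995% to 10 other processed transcripts. Auts2 was an exception, with 91.4% of its reads on a 7409-nt processed transcript, so its tail given above is mostly that of a transcript not annotated as coding. In 21 genes at least 2 transcripts had 10 reads in every library, and their WT means spanned 1.36 to 24.4 nt within a gene, with a median span of 10.05 nt. The narrowest was Arid1a (157 and 158 nt) and the widest Hdac5 (115 to 139.8 nt over 4 transcripts). Transcripts with fewer reads could lie further apart. The 5406-nt Hdac5 transcript with a retained intron had 193 ± 12 nt across WT, on 35 reads over the libraries of both genotypes. In Hdac5 the 4852-nt transcript had 115 ± 9.03 nt across WT and 133 ± 9.26 nt across KO, on 209 reads. Its 3788-nt transcript had 132 ± 8.304 nt across WT and 129 ± 6.93 nt across KO. Smarca2 had 5 transcripts with 10 reads in every library, of which 3 are short forms, and they spanned 145 to 154 nt. Ash1l, a lysine 36 methyltransferase, had 146 ± 5.67 nt across WT and 142 ± 5.54 nt across KO on its 11644-nt transcript and 169.6 ± 22.7 nt across WT and 167 ± 18.5 nt across KO on the 11268-nt one.

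Retained-intron transcripts, which are often kept in the nucleus, showed no single pattern. In 8 member genes they had 20 reads or more over the 6 libraries, and reads of the 3 libraries of a genotype were pooled to compare them with the coding transcripts of the same gene. The retained-intron tail was the longer in 3 genes in both genotypes, the shorter in 2 in both, and the sign differed between the genotypes in 3. It was the longer in Hdac5, at 185 against 129 nt in WT and 159.6 against 131 nt in KO, on 44 retained-intron reads. The same held for Trrap (210.5 against 188 nt in WT and 205 against 182 nt in KO, 50 reads) and Ncor1 (193 against 147 nt in WT and 156 against 152 nt in KO, 24 reads). It was the shorter in Kmt2e (141 against 169.99 nt in WT and 143 against 162 nt in KO, 48 reads) and Arid2 (175 against 181 nt in WT and 139 against 188 nt in KO, 37 reads). The sign differed in Med12, with 281 against 231 nt in WT and 196 against 219.6 nt in KO on 30 reads. It also differed in Setd5 (164 against 175 nt in WT and 164 against 161 nt in KO, 104 reads) and in Chd3 (131 against 129.7 nt in WT and 125 against 130.4 nt in KO, 997 reads). Most of these values rest on few reads, and no test was made of them.

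No chromatin regulator mRNA passed the test for a tail length change between knockout and WT. limma called 0 of 40 members at an adjusted p under 0.05, where it called 0.0% of all 11323 genes, and no member reached an unadjusted p under 0.05. At that unadjusted level 5.03% of all genes were shorter and 1.53% longer. The median tail of members was 161 ± 3.702 nt across WT and 159 ± 3.37 nt across KO, with 158, 156 and 163 nt in the knockout libraries. Estimates were below 0 for 28 members and above 0 for 12, a share of 70% below 0 beside 61.7% over all genes. The median log2 change was -0.03 over members and -0.02 over all genes. With libraries centred on their median, 22 of 40 were below 0. Against genes of like length, 19 members were below and 21 above. Of the 40, 3 had all knockout libraries below all WT libraries, where 8.44% of all genes did. None had all knockout libraries above, where 3.22% of all genes did.

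The 6 members with the smallest unadjusted p are given by their values. Med12 had the smallest: its tails, listed above, averaged 239.9 ± 17.03 nt across WT and 212 ± 15.03 nt across KO, a log2 change of -0.18 ± 0.08 (SE; adjusted p = 0.778). The longest knockout library was above the shortest WT library, and the change was -0.12 without KO replicate 1. Med13, which joins the Mediator kinase module to the core (chromosome 11, 86267033 to 86357602), had 172, 169 and 169.8 nt in WT replicates 1 to 3 and 159, 124 and 161 nt in KO replicates 1 to 3. Its knockout libraries were all below WT, with knockout replicate 2 far below the others, and the log2 change was -0.21 ± 0.10 (SE; adjusted p = 0.782). Without knockout replicate 2 it was -0.09. Setd5 had 166, 179.6 and 168 nt in WT replicates 1 to 3 and 164, 157 and 164 nt in KO replicates 1 to 3, also with the genotypes apart, and a log2 change of -0.08 ± 0.05 (SE; adjusted p = 0.833). Crebbp, the CREB-binding acetyltransferase (chromosome 16, 4081328 to 4213997), had 172, 188 and 167 nt in WT replicates 1 to 3 and 166, 169 and 155 nt in KO replicates 1 to 3, a log2 change of -0.10 ± 0.06 (SE; adjusted p = 0.846). Ep400, the remodelling ATPase of the NuA4/TIP60 complex (chromosome 5, 110664373 to 110770717), ran the other way with 172, 167 and 179 nt in WT replicates 1 to 3 and 183, 174 and 195 nt in KO replicates 1 to 3 and a log2 change of 0.09 ± 0.06 (SE; adjusted p = 0.866). Kmt2c, listed above, had a log2 change of 0.11 ± 0.07 (SE; adjusted p = 0.868). The genotypes overlapped for Crebbp, Ep400 and Kmt2c. Single libraries moved these estimates too: Setd5 was at -0.05 without WT replicate 2, and Crebbp at -0.05 without WT replicate 2 and -0.06 without KO replicate 3. Ep400 was at 0.04 without KO replicate 3. Kmt2c was at 0.06 without WT replicate 3, 0.06 without KO replicate 2 and 0.16 without WT replicate 2. The median SE over members was 0.06 on the log2 scale, so small changes in single mRNAs were not detectable at this depth. Per transcript, limma called 0 of 76 member transcripts and 0.0% of all 16168, with 2 members shorter and 1 longer at an unadjusted p under 0.05 (beside 4.13% and 1.71% of all transcripts). Estimates were below 0 for 46 of the 76, beside 58.8% of all. The longer one was the 4852-nt Hdac5 transcript given above (log2 0.21 ± 0.08), chosen for mention after its values were seen.

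**Figure D4:**
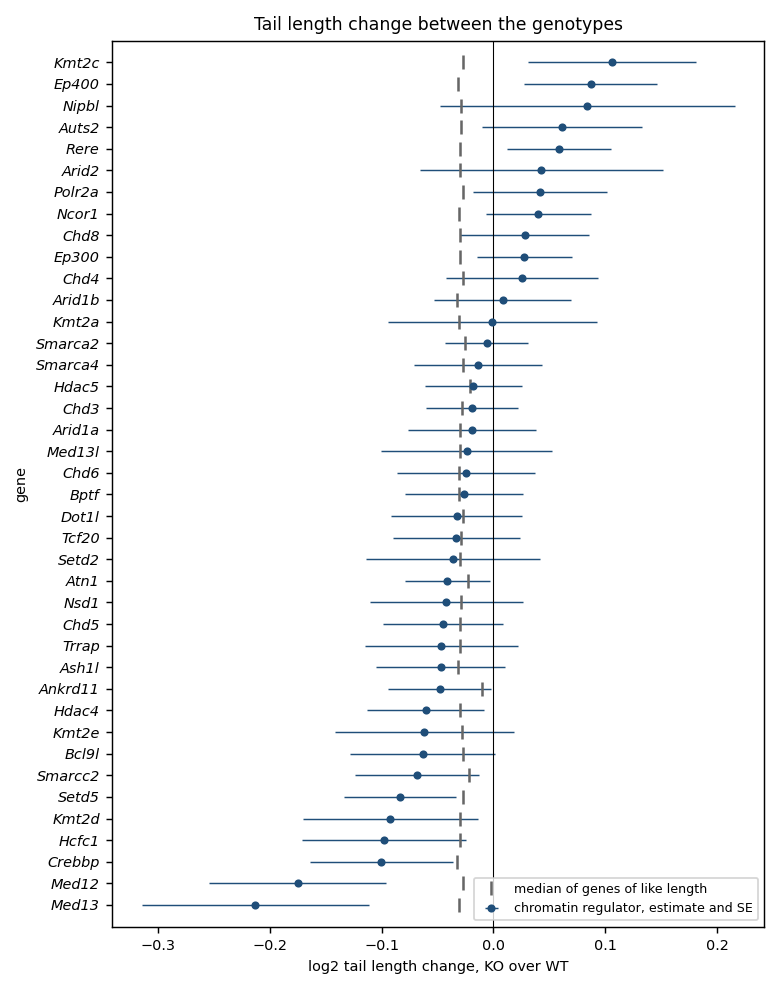
Log2 change in tail length from WT to knockout for 40 chromatin regulators (points with SE), with the median change of genes of like length as a grey mark. Estimates run from -0.21 for Med13 to 0.11 for Kmt2c, and 19 points lie left of their grey mark and 21 right of it.

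No member changed in abundance by the test either, and more estimates were below 0 than above. edgeR's quasi-likelihood test on tail reads per gene called 0 of 41 members at an adjusted p under 0.05, where 1.03% of 12543 genes were called. DESeq2, after its independent filtering, gave an adjusted p to only 3 of the 41 members and called 0 of those. With that filtering off, all 41 had one and 0 were called (lowest DESeq2 adjusted p = 0.995). At an unadjusted p under 0.05, 7 members were lower in the knockout and 1 higher, where 6.12% and 6.76% of all genes were. Estimates were below 0 for 25 members (60.98%) and above 0 for 16, beside 50.6% below and 49.4% above 0 over all genes. The median log2 change was -0.05 over members, -0.01 without KO replicate 1 and -0.08 without KO replicate 2. On the authors' RPM, by limma on log2(RPM + 1), 32 of 41 members were below 0 and the median was -0.14, beside -0.04 over all genes. For each member the genes of like length in the edgeR test gave a median change and a share below 0. Over the members, the median of these was -0.07 for the change and 64.1% for the share. Of the members, 19 were below and 22 above their like-length median. Over all genes the median log2 change fell with transcript length, from 0.08 under 1000 nt to -0.09 between 8000 and 12000 nt. With an offset per library for transcript length, 13 of 41 members were below 0 and no member was called. The median was then 0.07 over members and 0.05 over all genes, and without the offset the median over all genes was -0.003.

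Summed over the members, abundance was 1738, 1612 and 1599 RPM for WT against 1458, 1572 and 1559 RPM for KO, replicates 1 to 3, in the authors' values. By tail reads it was 1572, 1495 and 1442 CPM for WT against 1421, 1507 and 1431 CPM for KO. The knockout libraries were all below WT in RPM and overlapped WT in tail reads. Setd2 had the smallest unadjusted p: 31.9, 24.9 and 20.9 CPM in WT replicates 1 to 3 and 20.3, 19.4 and 19.1 CPM in KO replicates 1 to 3, a log2 change of -0.39 ± 0.16 (SE; adjusted p = 0.282). The knockout libraries were close together and all below WT, where WT replicate 1 was high, and without it the change was -0.22. Atn1 had 89.2, 79.2 and 82.2 CPM in WT replicates 1 to 3 and 76.3, 70.4 and 70.1 CPM in KO replicates 1 to 3, a log2 change of -0.20 ± 0.08 (SE; adjusted p = 0.286). Med13l, a Mediator kinase module subunit, had 23.6, 27.04 and 18.8 CPM in WT replicates 1 to 3 and 15.3, 18.1 and 19.7 CPM in KO replicates 1 to 3, and its log2 change was -0.38 ± 0.16 (SE; adjusted p = 0.312). WT replicate 3 of Med13l lay below its highest knockout library, and without WT replicate 2 the change was -0.25.

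Of the 6 SWI/SNF members, all but Smarcc2 had estimates below 0, and none passed. Arid1a, the DNA-binding subunit of the BAF form (chromosome 4, 133679008 to 133756769), had 47.8, 41.8 and 43.8 CPM in WT replicates 1 to 3 and 40.4, 32.1 and 38.2 CPM in KO replicates 1 to 3, a log2 change of -0.25 ± 0.11 (SE; adjusted p = 0.336). Smarca2 had 110.4, 107 and 97.9 CPM in WT replicates 1 to 3 and 97.5, 84.8 and 95.1 CPM in KO replicates 1 to 3, a log2 change of -0.17 ± 0.08 (SE; adjusted p = 0.3601). Smarcc2 had 95.4, 89.8 and 90.4 CPM in WT replicates 1 to 3 and 102, 109 and 100.1 CPM in KO replicates 1 to 3, higher in all knockout libraries than in any WT library, with a log2 change of 0.17 ± 0.08 (SE; adjusted p = 0.341). For Arid1b the log2 change was -0.17 ± 0.13 (SE; adjusted p = 0.623), and for Smarca4 -0.08 ± 0.13 (SE; adjusted p = 0.8505). With the length offset the changes were -0.25 for Med13l, -0.13 for Atn1, -0.13 for Arid1a and -0.07 for Smarca2, and by limma on log2(RPM + 1) that of Smarcc2 was 0.07. In all, 5 members had every knockout library below every WT library and 1 the reverse, where 8.16% and 9.12% of all genes did. The largest estimate was that of Srcap, at 0.84 ± 0.47 (SE; adjusted p = 0.479), from 5, 13 and 3 reads in the WT libraries and 11, 14 and 7 in the knockout libraries. Levels ran from 3.85 RPM for Srcap to 153 RPM for Chd3 in WT, with a median of 29.8 RPM. Per transcript, edgeR called 0 of 86 member transcripts (0.517% of all 19933), with 6 lower and 1 higher at an unadjusted p under 0.05 (beside 4.99% and 5.04% of all transcripts). Of the 86, 53 were below 0, beside 50.9% below and 49.1% above 0 of all. In the authors' deposited table, 0 of 212 member transcripts with a p-value were under 0.05, where 1.22% of all 56942 were.

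**Figure D5:**
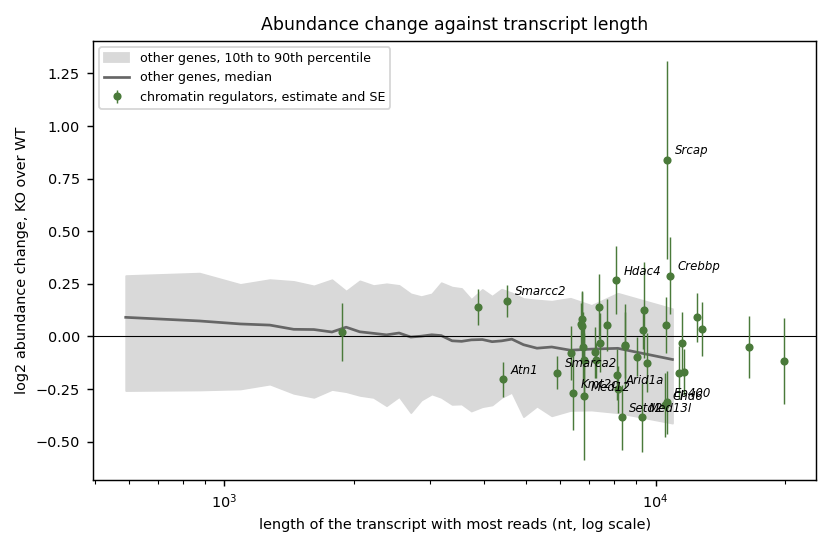
Log2 change in abundance from WT to knockout against the length of the transcript with most reads (nt, log scale); points are the 41 chromatin regulators with SE, and the line and band are the median and the 10th to 90th percentile of all other genes in bins of length, drawn at each bin's middle. The line slopes from above 0 for short transcripts to below 0 for long ones, and the points scatter around it, with Setd2 at -0.39, Crebbp at 0.29 and Srcap at 0.84.

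Other subunits of these complexes, and genes of the Polycomb, cohesin and polymerase complexes, were not called either. Over 9 lists with 151 entries, limma called 0 for tails and edgeR 0 for abundance, beside 0.0% and 1.03% of all genes. Of 22 other SWI/SNF subunits 21 had tails (median 154 ± 7.19 nt across WT and 157 ± 2.56 nt across KO). Tail estimates were below 0 for 11 of them and above 0 for 10, beside 61.7% below 0 over all genes. Smarcd1 had 143 ± 0.957 and 135 ± 5.35 nt and the neuronal actin-like subunit Actl6b 140.4 ± 4.98 and 133 ± 3.89 nt in WT and knockout. Of 30 other Mediator subunits 29 had tails (median 144 ± 3.08 nt across WT and 142 ± 2.99 nt across KO), with Med28 at 118 ± 3.23 and 117 ± 1.88 nt. Of 12 other NuRD subunits 12 had tails (median 138 ± 6.11 nt across WT and 138 ± 4.25 nt across KO), with the histone-binding Rbbp7 at 138 ± 4.87 and 141 ± 7.21 nt and Mbd3 at 109 ± 4.27 and 112 ± 1.19 nt. The 13 COMPASS partners of the Kmt2 enzymes had a median tail of 165 ± 6.17 nt across WT and 158 ± 1.65 nt across KO, with 115 ± 7.79 and 119 ± 10.1 nt for the small subunit Dpy30 and 183 ± 9.56 and 161 ± 14.9 nt for Cxxc1, the pair with most reads. The 12 other subunits of RNA polymerase II had 124 ± 1.88 nt across WT and 123 ± 2.37 nt across KO, on transcripts with a median length of 982 nt.

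Cohesin and its loading factors had a median tail of 162 ± 1.297 nt across WT and 157 ± 5.06 nt across KO. They had 10 of 11 tail estimates below 0 and a median log2 change of -0.05, and 0 were called. Over all genes 61.7% of tail estimates were below 0, the share to set beside each list here, and 64.8% between 4000 and 6000 nt. Rad21 was at 142 ± 5.33 and 142 ± 5.53 nt and Pds5b at 156 ± 1.17 and 158 ± 4.28 nt in WT and knockout. Polycomb genes had 157 ± 5.12 nt across WT and 157 ± 2.05 nt across KO and 13 of 21 estimates below 0, with Cbx6 at 143 ± 3.36 and 144 ± 1.64 nt and Bap1 at 134 ± 1.83 and 131 ± 3.06 nt. The other NuA4/TIP60 and SRCAP subunits had 144 ± 5.86 nt across WT and 143 ± 4.44 nt across KO and 12 of 17 estimates below 0, those with most reads being Morf4l1 (129.98 ± 4.79 and 131 ± 3.05 nt) and Morf4l2 (149 ± 3.703 and 147 ± 4.89 nt). NCoR partners and further deacetylases had 164 ± 0.364 nt across WT and 156 ± 7.04 nt across KO and 7 of 11 below 0, with Hdac11 at 141 ± 4.98 and 141 ± 4.903 nt and Hdac3 at 167 ± 7.24 and 165 ± 4.45 nt. In abundance, estimates were above 0 for 14 of 21 other SWI/SNF subunits and 10 of 12 polymerase subunits, beside 49.4% of all genes. The same held for 9 of 12 NuRD, 12 of 17 NuA4/TIP60 and SRCAP and 17 of 29 Mediator subunits. Fewer were above 0 among COMPASS partners (5 of 13), NCoR partners and deacetylases (4 of 11), Polycomb genes (10 of 21) and cohesin genes (5 of 11). The median transcript was 982.5 nt for polymerase, 1824 nt for NuA4/TIP60 and SRCAP and 2919 nt for SWI/SNF subunits. It was 3385 nt for COMPASS partners and 5369 nt for cohesin genes. Over all genes 32.6% were below 0 under 1000 nt, 50.1% from 2000 to 4000 nt and 57.4% from 4000 to 6000 nt. These lists were not set beside genes of like length, and the part of length in the counts was not tested.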

How the data were processed

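Poly(A) tail length and abundance were measured by direct RNA sequencing of cortex in 3 WT and 3 Fmr1 knockout samples. Per the file headers, the authors deposited a mean tail length in nt, the read count behind it and an RPM value for each transcript and sample. Per the submitters' processing notes, minimap2 2.17, SAMtools 1.9, Salmon 1.5.2, DESeq2 and mm10 were used, and for the tail estimator no name is given in the sources used here. The authors' deposited table also holds their log2 fold change and p-value per transcript, whose direction the header does not state. RPM values were whole multiples of 1 read, within 0.01, for 99.9% to 100% of values in a library, and whole reads recovered from them were used as an alternative, which called 101 genes. Tail reads and these reads were assigned to transcripts differently.

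Tails were pooled per gene over its reads and compared as log2(nt + 1) with limma 3.58.1 (variance trend) where every library had at least 10 reads. Abundance was tested on summed tail reads with edgeR 4.0.16 (quasi-likelihood test after filterByExpr and TMM scaling), with DESeq2 1.42.0 as an alternative. Adjusted p-values are Benjamini-Hochberg over all genes or transcripts, and log2 changes are knockout over WT. Both tests were also run on simulated data with known changes, where recovering the smaller simulated tail change was not a condition of passing. Transcript classes, gene coordinates and 3′ ends came from GENCODE mouse release 21 (mm10), which held 399 of 400 member transcripts. Values are mean ± SD over 3 libraries unless stated otherwise. Named members are the 6 with the smallest p in each test, the 5 with the longest and 5 with the shortest WT tail, and the 4 with most and 4 with fewest reads, and for each further list those called or the 2 with most reads. The members and lists were chosen with earlier results of these data known. The closing section gives the effect of leaving out libraries and of other filters, scales and normalizations.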

Additional observations from a re-analysis of the deposited data

How the results depend on the processing

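No member was called in any alternative run: another read filter, scale, pseudocount, centring, variance trend, normalization, a length offset, the replicate block, any library left out or DESeq2. DESeq2 gave an adjusted p to 3 members of 41, and to all with its independent filtering off, which was chosen after seeing the data. Over all features, tail calls were 0 except with a variance trend on read number (12 genes and 11 transcripts). Abundance calls were 129 genes, but 81 with DESeq2 (35 with filtering off), 249 with no filter and 40 and 41 with limma on log2 RPM plus 1 and plus 5, and 57 to 206 with a library left out (lowest without KO replicate 2, highest without WT replicate 1). Per transcript they were 103, but 22 with DESeq2 and filtering off, 180 with no filter, 34 and 35 with the same limma fits, and 44 to 163 with a library left out (lowest without KO replicate 3, highest without WT replicate 1). Replicate numbers did not pair the samples (correlations of same-numbered deviations from -0.07 to 0.05). The replicate block gave 92 genes and 171 transcripts for abundance and 0 for tails. Members below 0 in tail change were 23 to 30 with a library left out and 22 of 40 when libraries were centred. In abundance they were 21 to 29 with a library left out, 13 with the length offset, 32 and 32 with limma on log2 RPM (medians -0.14 and -0.12), 27 with reads recovered from RPM (median -0.10) and 28 with library size alone (median -0.10). Member transcripts below 0 were 30 of 45 for tails at 30 reads, and 89 (DESeq2, with or without filtering) and 90 (no filter) of 172 for abundance, since other numbers of transcripts were tested. With a library left out they were 40 to 53 for tails and 46 to 57 for abundance. With windows of a factor of 1.1 and 1.5, 21 and 21 of 40 members were above genes of like length in WT tail, and 20 by the longest annotated transcript, an alternative chosen after seeing the data. Few reads per gene limit single members.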
